A study of Homo sapiens with 5 samples.

Results

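HIF1α binding was mapped by ChIP-seq in BEAS-2B cells, which are human bronchial epithelial cells made immortal in culture, without arsenic and with inorganic arsenic (iAs). The peaks described here are the 6008 intervals called in the HIF1α control library and the 12826 called in the HIF1α iAs library, chosen by the library name that each interval carries. Together they make 18834 of the 29781 intervals of the series, whose other intervals are 3204 Nrf2 peaks in control cells and 7743 Nrf2 peaks after iAs. All cells were starved of serum overnight, and the treated cells then received 1 μM iAs for 6 h. The antibody against HIF1α was Abcam ab2185 by the sample labels, whereas the methods of the study name Active Motif. There is 1 library per condition from a single cell line, so no difference between control and iAs has a replicate check, and no p-value is given. The lists hold interval positions on hg19 without heights, so a peak can be compared by its presence, its width and its place, and a peak missing from a list may have been present below the calling threshold.

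HIF1α is the oxygen-regulated subunit of the transcription factor HIF1. With oxygen present, prolyl hydroxylases of the EGLN family mark it for VHL, which sends it to the proteasome, and when this fails it pairs with ARNT and binds the hypoxia response element, whose core is RCGTG with A or G as its first base. Its classical targets encode glucose transporters, glycolytic enzymes, lactate export, pyruvate dehydrogenase kinases, angiogenic factors, mitophagy receptors and collagen-modifying enzymes. AP-1 and the Nrf2 and small Maf pair read another element, TGASTCA with C or G in its middle, which stands alone in AP-1 sites and forms the core of the antioxidant response element.

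HIF1α peaks of both conditions were found at start sites of classical HIF1 targets. The sequences that follow come from the hg19 strand named with each, and the first set shows the ACGTG form of the core, in capitals, nearest to the centre of an iAs peak at 8 such genes. In PGK1, ENO1, LDHA, PDK1 and EGLN1 the peak was present in both conditions, and in HK2, VEGFA and EPO it was in the iAs list alone.
PGK1, chrX:77359550-77359578, minus strand: ggtactagtgagACGTGcggcttccgttt
ENO1, chr1:8938500-8938528, minus strand: ggggtcgggggcACGTGcaagccgcctcc
LDHA, chr11:18416025-18416053, minus strand: gggggccggcggACGTGcgggaacccacg
PDK1, chr2:173420798-173420826, minus strand: ctgccgagtggtACGTGagggacgtggcg
EGLN1, chr1:231558030-231558058, minus strand: gggccgtggtgtACGTGcagagcgcgcag
HK2, chr2:75061917-75061945, minus strand: tgtgcttagcggACGTGgctcctggcgcc
VEGFA, chr6:43737623-43737651, minus strand: gaaagtgaggttACGTGcggacagggcct
EPO, chr7:100318180-100318208, minus strand: gggctgctgcagACGTGcgtgtgggtcat
Relative to the transcription start site (TSS) of the canonical transcript, these cores lie upstream at -181 bp in PGK1, at -71 bp in LDHA, at -6 bp in PDK1, at -11 bp in EGLN1 and at -311 bp in VEGFA. Those of ENO1 and HK2 lie in intron 1, at 231 and 677 bp, and that of EPO in the 5'-UTR of exon 1, at 103 bp. The HK2 and ENO1 peaks held 7 matches each, and the LDHA peak 5. Only genes with ACGTG in an iAs peak could be shown here. Over all 8734 genes with an iAs start-site peak, 41.8% held ACGTG in such a peak.

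The second set shows the TGASTCA element, in capitals, inside control HIF1α peaks that had no iAs counterpart, all near genes of the lists used below.
PLOD2, chr3:145849955-145849983, plus strand: agtatgcagaaTGACTCAccatcccagta
ANGPTL4, chr19:8427077-8427105, plus strand: tggagccctgcTGAGTCAatgcccttctc
HK1, chr10:71076290-71076318, plus strand: gtggggaggaaTGAGTCAccttgagaagc
NQO1, chr16:69760901-69760929, plus strand: tcagattctgcTGAGTCActgtgactgcg
By the canonical transcript, the elements of ANGPTL4, HK1 and NQO1 lie upstream of the TSS at -1948, -2299 and -452 bp, and that of PLOD2 in intron 1 at 29002 bp.

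The first question was how far the HIF1α peaks of iAs-treated cells lay where control cells already had one. Of the 6008 control peaks, 53.7% (95% interval 52.4 to 55.0, Wilson, counting error only) overlapped an iAs peak by at least 1 bp. Of the 12826 iAs peaks, 75.2% (74.5 to 76.0) overlapped no control peak. Put together, the lists cover 15580 separate regions, of which 3147 (20.2%) were in both conditions, 2782 (17.9%) in control alone and 9651 (61.9%) in iAs alone. Almost all shared regions, 3045, paired a single control peak with a single iAs peak. In another 74, several control peaks lay within a single iAs peak, and in 24 a single control peak reached over several iAs peaks. Most peaks found in 1 condition alone had no peak of the other within 10 kb, though the control list offers fewer peaks to measure to. The median distance was 71457.5 bp from an iAs-only peak to the nearest control peak and 45905.5 bp from a control-only peak to the nearest iAs peak, and 17.9% and 22.4% of them, respectively, had such a neighbour within 10 kb. Keeping only the 6008 widest iAs peaks, 37.7% of the control peaks were shared and 63.4% of the iAs peaks were new.

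Where HIF1α was bound in both conditions, its peaks were mostly wider with iAs. Over the 3045 regions with 1 peak of each library, the median width was 312 bp in control and 477 bp with iAs, and the median ratio was 1.44 (quartiles 1.03 and 2.1). The iAs peak was the wider in 2336 regions (76.7%, 75.2 to 78.2), at least 2 times as wide in 847 (27.8%), and at most 0.5 times as wide in 50 (1.64%). The widening was larger at start sites. In the 2451 regions within 1 kb of a protein-coding TSS the median ratio was 1.54 and 82.1% (80.5 to 83.6) were wider, whereas in the 594 regions farther away it was 1.07 and 54.5% (50.5 to 58.5) were wider. Widths in the 2 conditions were only loosely related across these regions, with Pearson's r = 0.253 for log2 widths over 3045 regions that share the libraries. The narrowest intervals were 190 bp in control and 188 bp with iAs, a floor that limits how small a peak can appear in either list. All iAs peaks together were also wider than all control peaks, with medians of 340 and 276 bp, and divided by the median width of its own list the ratio fell to 1.17.

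**Figure D1:**
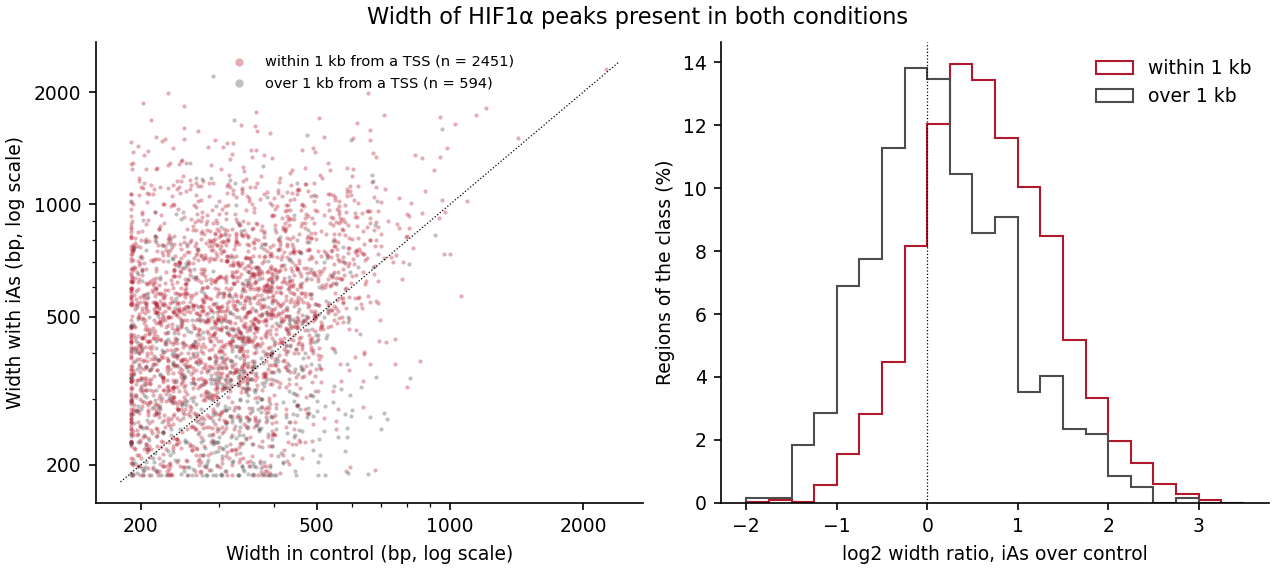
Width of HIF1α peaks in the 3045 regions with 1 control and 1 iAs peak. Left, width in control against width with iAs (bp, log axes, 1 point per region, dotted line of equal width); right, share of regions (%) by log2 width ratio. Regions within 1 kb of a TSS lie mostly above the line (82.1% wider with iAs), and those farther away scatter on both sides of it (54.5%).

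The largest gains in width were at PPP1R3G, a glycogen-targeting subunit of protein phosphatase 1, from 202 to 1871 bp (ratio 9.26), and at CTDSP1, a phosphatase of the RNA polymerase II tail, from 230 to 1988 bp (8.64). EMD, which encodes the nuclear membrane protein emerin, went from 211 to 1683 bp (7.98). CUL1, the scaffold of SCF ubiquitin ligases, went from 190 to 1467 bp (7.72), and the lactate exporter gene SLC16A3 from 292 to 2215 bp in intron 1 (7.59). The largest losses were at SYS1, from 678 to 194 bp (0.286), at CUEDC1, from 654 to 189 bp (0.289), at CP, the gene of ceruloplasmin, from 589 to 190 bp (0.323), at the ribosomal protein gene RPL37, from 583 to 192 bp (0.329), and at the chromatin reader gene ZMYND8, from 594 to 197 bp (0.332). The 5 widest shared peaks with iAs lay nearest to MNT (2434 bp), GAPDH (2311 bp), SLC16A3 (2215 bp), MAFK (2070 bp) and CTDSP1 (1988 bp). GAPDH, which encodes a glycolytic enzyme, was broad already in control, at 2258 bp.

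The next question was where on genes the peaks of each kind lay. Shared peaks and iAs-only peaks sat at start sites, and control-only peaks did not. The centre was within 1 kb of a TSS for 80.5% (79.1 to 81.8) of the shared control peaks and 77.2% (76.4 to 78.0) of the iAs-only peaks, but for 18.7% (17.3 to 20.2) of the control-only peaks. The median distance to the nearest TSS was 118 bp for shared control peaks, 311 bp for iAs-only peaks and 24704 bp for control-only peaks. Of the control-only peaks, 45.8% lay 10 to 100 kb from a TSS and 20.4% over 100 kb away, against 8.6% and 1.52% of the iAs-only peaks. Control-only peaks were also the narrowest, with a median of 248 bp against 311 bp for shared control peaks. Among the 6008 widest iAs peaks as comparator, which leaves more control peaks without a counterpart, 30.8% of the control-only peaks lay within 1 kb of a TSS.

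**Figure D2:**
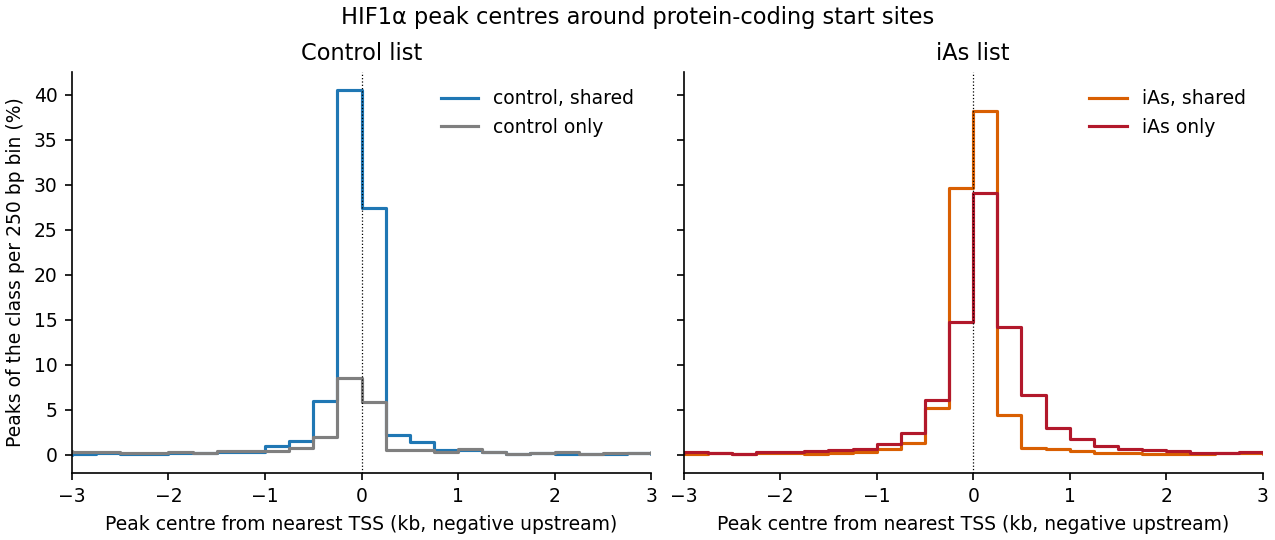
Position of HIF1α peak centres relative to the nearest protein-coding TSS, in 250 bp bins, as a share (%) of all peaks of each kind; negative values are upstream. Control-only peaks (grey) contribute little near the TSS (18.7% within 1 kb), shared control peaks are highest just upstream, and iAs-only peaks are highest just downstream and trail into the gene.

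The side of the TSS differed as well. Among peaks within 1 kb of a TSS, 60.8% (58.9 to 62.6) of shared control peaks and 61.9% (57.7 to 66.0) of control-only peaks had their centre upstream of it, against 45.5% of the shared iAs peaks and 31.6% (30.5 to 32.6) of the iAs-only peaks. The median position of the iAs-only peaks was 104 bp downstream of the start. In the 2451 shared pairs at start sites, the iAs interval reached a median 21 bp farther upstream and 123 bp farther downstream than the control interval, and its centre lay downstream of the control centre in 1676 (68.4%, 66.5 to 70.2). The values were alike without start sites that had another TSS on the opposite strand within 1 kb of the peak centre, a comparison added after they were seen. The upstream shares were then 62.4% for shared control peaks and 32% for iAs-only peaks, and over 2063 pairs the edges moved by 20 and 125 bp. ENO1, which encodes the glycolytic enzyme enolase, shows the pattern. Its control peak ended just past the start site, with its centre at -353 bp, and its iAs peak had nearly the same upstream edge but ran far into the gene, with its centre at 47 bp and a width of 1716 bp against 950 bp. The control peak of the pyruvate dehydrogenase kinase gene PDK2 was 346 bp wide with its centre at -126 bp, and the iAs peak was 835 bp wide with its centre at 44 bp in the 5'-UTR.

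By gene, HIF1α occupied the start sites of many more genes after iAs. Of 19785 protein-coding genes, 3472 (17.5%) had a control peak centred within 1 kb of a TSS and 8734 (44.1%) had an iAs peak there. The state was both conditions for 3094 genes (15.6%), iAs alone for 5640 (28.5%) and control alone for 378 (1.91%). In the 3094 genes with both, 819 (26.5%) had a further iAs peak at a start site that overlapped no control peak. Counting peaks anywhere in the gene or within 10 kb of it, 28.9% of genes had a control peak and 54.6% an iAs peak. Limiting the iAs list to its 6008 widest peaks brought the iAs-alone share down to 14.9% and raised the control-alone share to 5.57%, so the size of the gain depends on how many iAs peaks are counted. The iAs-alone share was still the larger. However, iAs peaks within 1 kb of a TSS were wider, with a median of 361 bp against 286 bp farther away. A choice by width thus favours start sites, and no other cut of the list was tried for genes.

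Genes whose start site held few CpG mostly had no HIF1α peak there, whereas CpG-rich start sites were found both with and without one. The 200 bp around the canonical TSS held 10 or more CpG in 14001 genes, of which 21.1% had a HIF1α peak in both conditions, 38.2% with iAs alone, 2.21% in control alone and 38.5% in neither. Of the 5784 genes with fewer CpG, 91.3% had a peak in neither, 5.01% with iAs alone and 2.46% in both. This comparison by CpG was added after the peak values had been seen.

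The gene lists below were read against these shares over all genes. In every list of HIF1 targets the share of genes with a start-site peak after iAs was above the 44.1% of all genes, but it was so too in the AP-1 (92.3%), TCA cycle (76.2%), Nrf2 target (75%), ribosomal protein (74.4%) and complex I (64.9%) lists, so it is not particular to HIF1 targets. The members of the lists are neither replicates nor a random draw from all genes, and their counts are descriptions.

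**Figure D3:**
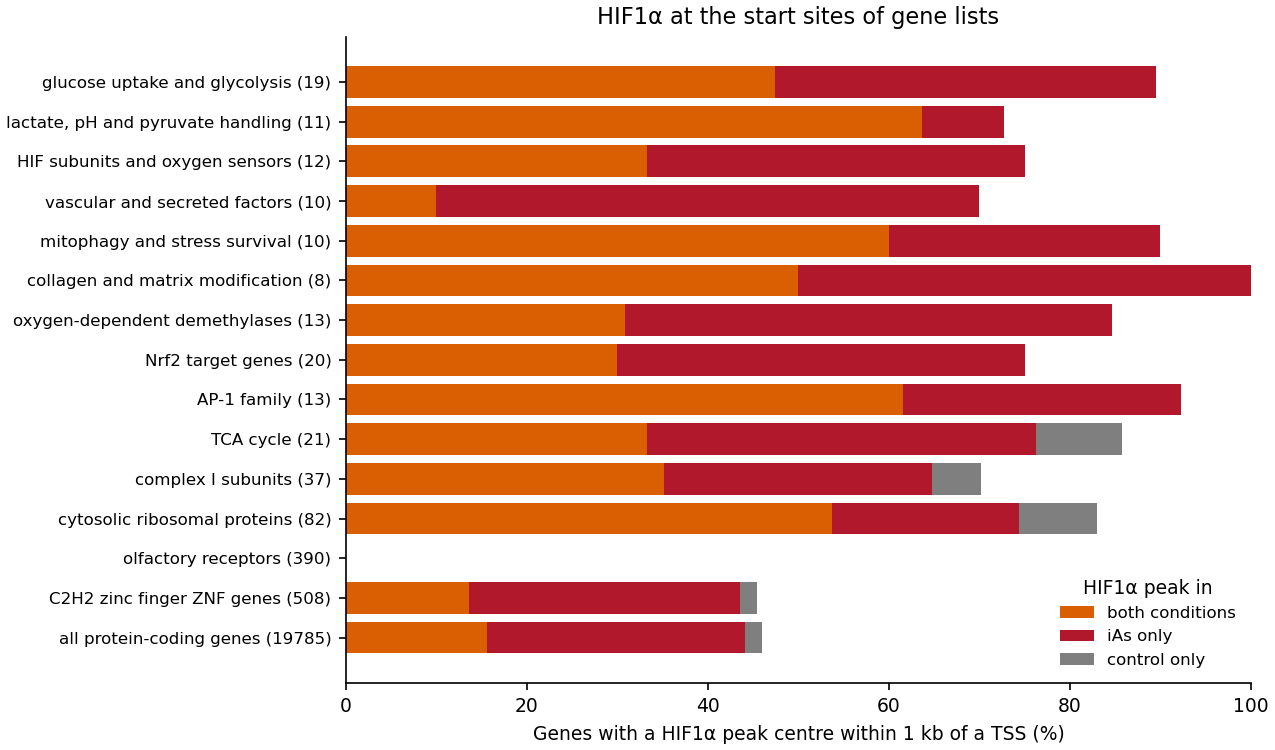
Share (%) of the genes of each list with a HIF1α peak centre within 1 kb of a TSS in both conditions (orange), with iAs only (red) or in control only (grey), with the number of genes in parentheses. All protein-coding genes stand at the bottom (15.6%, 28.5% and 1.91%), the olfactory receptors at 0, and the HIF1 target lists between 70 and 100% in all.

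Glucose uptake and glycolysis was the fullest of the metabolic lists. Of its 19 genes, 9 had a start-site peak in both conditions, 8 with iAs alone and 2, PFKFB4 and ALDOC, in neither. With iAs alone, a peak appeared at the glucose transporter gene SLC2A1 (943 bp wide), at HK2, the inducible hexokinase (1310 bp), at GPI (390 bp), at the phosphofructokinase genes PFKM (590 bp, at an alternative start site) and PFKP (209 bp), at PFKFB3 (574 bp), whose product makes the activator of phosphofructokinase, and at PGAM1 (785 bp). The other gene, SLC2A3, counts only through an alternative start site far upstream, with an iAs-only peak of 207 bp at -82942 bp, and had no HIF1α peak at its canonical start. HK2, PFKM, PFKP, PFKFB3 and PGAM1 had no control peak anywhere in the gene or within 10 kb. Among the genes bound in both conditions, the peak of PKM, the pyruvate kinase gene, was 1903 bp wide with iAs, where control had separate peaks of 261 and 270 bp. The peak of ALDOA, which encodes aldolase, went from 660 to 1491 bp, that of TPI1, triosephosphate isomerase, from 494 to 1022 bp, and that of the enolase gene ENO2 from 280 to 566 bp. PGK1, phosphoglycerate kinase, changed little, from 432 to 502 bp. Over the list, the widest start-site peak per gene had a median of 943 bp with iAs, against 417 bp over all 8734 genes with such a peak, and in control the medians were 432 and 303 bp. An iAs start-site peak held ACGTG in 14 of these 17 genes (82.4%), against 41.8% of the 8734 genes, though wider intervals hold more letters to match.

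Genes of lactate, pH and pyruvate handling were mostly bound already in control. Of 11 genes, 7 had a start-site peak in both conditions, 1 with iAs alone and 3 in neither. LDHA, the lactate dehydrogenase subunit that makes lactate, had a peak of 619 bp in control and 812 bp with iAs, and with iAs further peaks of 404 and 419 bp in intron 1. At PDK1, which shuts pyruvate out of the TCA cycle, the peak around the start site went from 205 to 1244 bp. PDK3 went from 429 to 721 bp. At SLC16A1, a lactate transporter, control peaks of 278 and 215 bp lay within the span of an iAs peak of 692 bp. SLC16A3 had 4 control peaks and 10 iAs peaks in or near the gene. Counts of peaks per gene depend on how finely a list is split. Merging intervals under 500 bp apart took the control list from 6008 to 5825 and the iAs list from 12826 to 10705. CA12, a carbonic anhydrase, had a start-site peak with iAs alone (228 bp). CA9, often used as a hypoxia marker, had none, and its nearest iAs peak was at -8670 bp. LDHB and PDK4 had no HIF1α peak in either list.

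The HIF pathway's own genes also carried peaks. Of 12 subunit and oxygen-sensor genes, 4 had a start-site peak in both conditions, 5 with iAs alone and 3, HIF3A, ARNT2 and EGLN3, in neither. HIF1A itself had a start-site peak of 228 bp at -288 bp with iAs alone, and its control peak lay at 55669 bp. EPAS1, which encodes HIF2α, ARNT (219 bp), EGLN2 (272 bp) and VHL (492 bp) also had a start-site peak with iAs alone. At EGLN1, the main oxygen-sensing prolyl hydroxylase, control peaks of 251 and 246 bp each overlapped a separate iAs peak, of 1494 and 382 bp. CITED2, a transactivation inhibitor of HIF1, had an iAs peak of 1186 bp over control peaks of 557 and 290 bp. EGLN3 had peaks in both conditions in intron 1, of 299 bp in control and 218 bp with iAs, 12.5 and 12.6 kb from its start.

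Among vascular and secreted factors, most genes with a start-site peak had it with iAs alone, which was so over all genes too. Of all 8734 genes with an iAs start-site peak, 5640 had one with iAs alone. Of 10 genes, 1 had a start-site peak in both conditions, 6 had one with iAs alone, and VEGFC, ANGPTL4 and EDN1 had none. VEGFA, the main angiogenic factor, had no control peak and 2 iAs peaks, of 198 bp at -233 bp and of 1264 bp over exon 1. EPO, which encodes erythropoietin, had 2 narrow iAs peaks of 189 and 196 bp in its first exon and no control peak. FLT1 (451 bp), PDGFB (217 bp) and TGFA (283 bp) had iAs peaks alone, and ADM, adrenomedullin, had start-site peaks with iAs alone beside a downstream peak that was 678 bp wide in control and 881 bp with iAs. An iAs start-site peak held ACGTG in 3 of the 7 vascular genes with one (42.9%), near the 41.8% over all genes with such a peak.

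Of 10 mitophagy and stress-survival genes, 6 had a start-site peak in both conditions, 3 with iAs alone and 1, FUNDC1, in neither. ANKRD37, a compact HIF1 target, had broad peaks in both, of 1028 and 1642 bp. At BNIP3L, a mitophagy receptor gene, control peaks of 190 and 258 bp were covered by an iAs peak of 1376 bp, and BNIP3, its relative, had 4 iAs peaks and no control peak. DDIT4, an inhibitor of mTORC1, had a control peak of 323 bp at the promoter and, with iAs, a peak of 700 bp there flanked by 3 others. INSIG2, a regulator of sterol synthesis, ran against the trend, with 316 bp in control and 209 bp with iAs. All 8 collagen and matrix genes had an iAs start-site peak, 4 of them in both conditions. The prolyl hydroxylase gene P4HA2 went from 230 to 789 bp and the lysyl hydroxylase gene PLOD2 from 400 to 1040 bp. P4HA1 had an iAs peak of 1031 bp over control peaks of 254 and 469 bp. LOX (867 bp), LOXL2 (772 bp), which crosslink collagen, and ERO1A (683 bp), which oxidizes proteins in the endoplasmic reticulum, had one with iAs alone. PLOD2 also had 3 control-only peaks, in intron 1 and upstream, on each of which an Nrf2 peak of iAs-treated cells lay.

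Among 13 oxygen-dependent demethylase genes, 4 had a start-site peak in both conditions and 7 with iAs alone. KDM3A, a known HIF1 target that removes methyl groups from histone H3, went from 661 to 919 bp, KDM4B from 340 to 821 bp and KDM5B from 265 to 773 bp. The iAs-only genes included KDM6A (855 bp), KDM5C (628 bp), KDM3B (636 bp) and all 3 TET genes, which encode DNA demethylases, at 188 bp in TET1, 261 bp in TET2 and 564 bp in TET3. The TET1 peak was at the narrowest width in the list. KDM4A and KDM6B had no start-site peak.

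The list of 20 Nrf2 target genes had 6 with a HIF1α start-site peak in both conditions, 9 with iAs alone and 5 in neither. At NQO1, the quinone reductase gene, both conditions counted a peak but not at one position. The control peak of 224 bp was at -500 bp, where the element printed above lies, and the iAs peak of 196 bp was at 56 bp in exon 1. HMOX1, heme oxygenase 1, had a shared upstream peak of 223 bp in control and 260 bp with iAs, at -8990 and -8941 bp, on which Nrf2 was called in both conditions, and a start-site peak of 292 bp with iAs alone. SQSTM1, which encodes the autophagy adaptor p62, had 2 control and 8 iAs peaks, counted without merging, and its start-site peak went from 374 to 1189 bp. FTH1, the ferritin heavy chain gene, had an iAs-only peak of 1055 bp. AKR1B10 had a control-only peak in intron 4 and no iAs peak. Of the 13 AP-1 and Maf genes, 8 had a start-site peak in both conditions, 4 with iAs alone and BATF in neither. The widths went from 362 to 1620 bp at FOSL2 and from 292 to 1141 bp at MAFF, but only from 435 to 474 bp at FOS. At JUNB the shared start-site peak was narrower with iAs, at 199 bp against 383 bp. Without merging, the gene had 3 control and 8 iAs peaks in or near it. At FOSL1, an iAs peak of 1516 bp covered control peaks of 383 and 252 bp, and at ATF3, a stress-induced repressor, one of 1315 bp covered control peaks of 251 and 215 bp. The iAs start-site peaks of these AP-1 and Maf genes held ACGTG in 10 of 12 (83.3%) and those of the Nrf2 targets in 5 of 15 (33.3%), beside 41.8% over all genes with such a peak. The median widest peak was 508.5 bp in the AP-1 and Maf genes and 351 bp in the Nrf2 targets, and the wider interval has more letters to match.

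Housekeeping genes of respiration and translation were also often bound at the start site. Of 21 TCA cycle genes, 7 had a peak in both conditions, 9 with iAs alone and 2 in control alone, namely the succinate dehydrogenase gene SDHD (194 bp) and the malate dehydrogenase gene MDH2 (306 bp). Of 37 genes of respiratory complex I, 13 had a peak in both, 11 with iAs alone and 2, NDUFA5 (354 bp) and NDUFB3 (224 bp), in control alone. The control-only peaks of these 4 genes were centred just upstream of the start, at -112, -67, -92 and -114 bp. Of 82 cytosolic ribosomal protein genes, 44 were in both, 17 with iAs alone and 7 (8.54%) in control alone, against 1.91% of all genes. A control start-site peak was itself more common among them, in 51 of the 82 (62.2%) against 17.5% of all genes. The control-alone shares therefore rest on unlike bases. The median widest peak of the ribosomal genes was 334 bp in control and 377 bp with iAs. C2H2 zinc finger genes of the ZNF series were close to all genes, with 13.6% of 508 in both and 29.9% with iAs alone. None of 390 olfactory receptor genes, which are largely silent outside the nose, had a HIF1α start-site peak in either list.

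In 598 genes (3.02% of all), the control library had a HIF1α peak in or within 10 kb of the gene that was gone from the iAs list, no control peak at a start site, and an iAs-only peak at a start site. Of the 769 control-only peaks of these genes, 54.1% lay in introns, 23.3% downstream, 20.7% upstream and 1.95% in exons. For scale, 28.5% of all genes had a start-site peak with iAs alone, so the pairing of a lost and a new peak in a gene is not shown to be a change of place. The 5 with the widest such iAs peak were TIAM1 (1978 bp), PPARGC1B (1971 bp), ZNF367 (1678 bp), NUAK1 (1549 bp) and SOCS3 (1497 bp). TIAM1, an activator of the GTPase Rac, had a control peak of 454 bp in intron 2, and its iAs peak lay at an alternative start site, at -214367 bp from the canonical one. PPARGC1B, a coactivator of mitochondrial genes, had a control peak of 190 bp in intron 1 at 75743 bp, on which Nrf2 was called in both conditions, and an iAs peak centred at 944 bp. In SOCS3, an inhibitor of cytokine signalling, the control peak of 334 bp was in the 3'-UTR of exon 2 and the iAs peak in intron 1, at 566 bp. TIAM1 and PPARGC1B were also the widest of all iAs-only peaks, followed by HEY2 (1825 bp), PRR7 (1821 bp) and CBX8 (1749 bp). The widest control-only peaks were nearest to TUBD1 (965 bp), ETS2 (829 bp), AGBL5 (792 bp), S100A10 (756 bp) and ERGIC2 (748 bp).

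The sequence under the peaks was then compared between the kinds of peak, in the 200 bp at each peak's centre, with the same window moved by 5 kb as background. Shared and iAs-only peaks lay on CpG-rich sequence and control-only peaks did not. Median GC content was 66.5% in shared control peaks, 71.0% in iAs-only peaks and 51% in control-only peaks, with means of 17.8, 20.5 and 5.42 CpG per window. The HIF1 core ACGTG, read on both strands (its complement is CACGT), was most frequent in shared peaks, at 28.3% (26.8 to 29.9) of the shared control windows against 9.7% of the moved ones. It was in 18.0% (17.3 to 18.8) of iAs-only windows against 9.4%, and in 18.1% (16.7 to 19.6) of control-only windows against 8.63%. In its looser form RCGTG, the core was in 59.1% of shared control, 51.4% of iAs-only and 34.3% of control-only windows, with 25.4%, 25.1% and 21.7% in the moved windows. Within 1 kb of a TSS, RCGTG was in 59.4%, 51% and 48.7% of the windows, in the same order of kinds. ACGTG was there in 27.7%, 17.8% and 20.6%. The moved windows are poorer in CpG, and both forms of the core contain a CpG.

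Start sites that were all CpG-rich gave a closer comparison, added after these values were seen. Among genes with 10 or more CpG in the 200 bp around the canonical TSS, ACGTG was in 23.2% of the 2952 bound in both conditions, in 16.5% of the 5350 bound with iAs alone and in 16.3% of the 5390 bound in neither. RCGTG was in 56.2%, 50.3% and 50.1% of them. In the 309 bound in control alone, ACGTG was in 20.1% and RCGTG in 51.1%. By these letters, start sites that had a HIF1α peak with iAs alone resembled CpG-rich start sites without any peak. Those with a peak in both conditions held the core more often. The shares of those with a peak in control alone fell between. They rest on 309 genes and carry no interval, so their order is not settled. A core elsewhere in the peak is not seen in this window.

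Over all distances, the TGASTCA element was most frequent in control-only peaks. It was in 25.2% (23.7 to 26.9) of their windows, against 3.59% of the moved windows, and in 30% of the 2262 control-only peaks over 1 kb from a TSS. In the 520 within 1 kb of a TSS it was in 4.62%, close to the 3.65% of their moved windows. In shared control peaks it was in 5.3% (4.58 to 6.13), with 18.1% (15.3 to 21.3) of the 630 that lay over 1 kb from a TSS. In iAs-only peaks it was in 1.75% (1.51 to 2.03), below the 3.25% of the moved windows, and at 3.77% of the 2200 over 1 kb from a TSS, close to the 3.95% of theirs. Away from start sites, too, the element was thus near its background in peaks called with iAs alone and above it in control peaks, though most distal control peaks did not hold it. The GC content there is not matched between these sets. Another element, ATGGCGGC, which resembles the site of the factor YY1, read on both strands, was in 6.63% of shared control, 2.63% of iAs-only and 0.755% of control-only windows. The moved windows held it in 0.248%, 0.29% and 0.108%. Within 1 kb of a TSS the element was in 8.09%, 3.09% and 3.65% of the windows, in the same order of kinds. Among all start sites with 10 or more CpG it was in 10.3% of those bound in both conditions, 9.06% in control alone, 6.49% with iAs alone and 4.3% in neither.

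**Figure D4:**
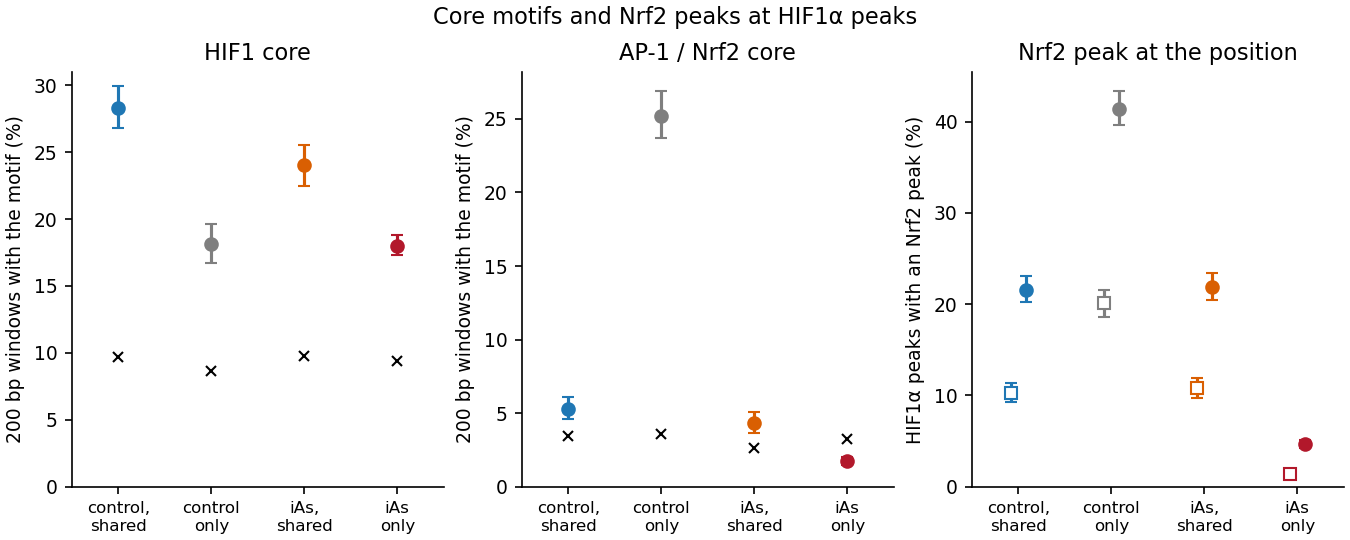
Share (%) of 200 bp windows at HIF1α peak centres with ACGTG (left) or TGASTCA (middle), and share of HIF1α peaks that overlap an Nrf2 peak (right; open squares, Nrf2 in control; filled circles, Nrf2 with iAs), with Wilson 95% intervals for counting error; crosses are windows moved by 5 kb. Over all distances from a TSS, control-only peaks have the highest shares for TGASTCA (25.2%) and Nrf2 with iAs (41.4%), and shared control peaks for ACGTG (28.3%). Over 1 kb from a TSS, TGASTCA is in 30% of control-only and 18.1% of shared control peaks. Nrf2 with iAs is there at 48.2% and 44%.

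The Nrf2 libraries, which the choice of the HIF1α peaks did not use, were read at the same positions. Control-only HIF1α peaks coincided with Nrf2 more often than any other kind. An Nrf2 peak of iAs-treated cells lay on 41.4% (39.6 to 43.3) of them, against 21.6% (20.2 to 23.1) of shared control peaks and 4.68% (4.28 to 5.12) of iAs-only peaks. For Nrf2 in control cells the shares were 20.1%, 10.3% and 1.42%. Distance from the TSS moved with this difference. Over 1 kb from a TSS, 48.2% (46.2 to 50.3) of control-only and 44% (40.1 to 47.9) of shared control peaks had an Nrf2 peak with iAs, intervals that overlap, whereas 6.68% (5.71 to 7.8) of the distal iAs-only peaks did. Within 1 kb of a TSS the shares were 11.7%, 16.2% and 4.09%.

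At the 2782 positions where HIF1α was called in control alone, Nrf2 was called in both conditions at 535 (19.2%), with iAs alone at 617 (22.2%), in control alone at 24 (0.863%) and in neither at 1606 (57.7%). Thus at 1152 of them a HIF1α peak of control cells was absent from the iAs list while an Nrf2 peak was present in the iAs Nrf2 list. The iAs Nrf2 list is the longer of the Nrf2 lists, and whether its length accounts for the 617 was not tested. TGASTCA was in 36.9% (34.2 to 39.7) of the control-only peaks with an Nrf2 peak and in 16.7% (14.9 to 18.6) of those without. Both shares are above their moved windows, of 4.59% and 2.86%. They were not compared at matched distance from a TSS. An Nrf2 peak of either condition lay on 49.2% of control-only peaks over 1 kb from a TSS and on 12.3% of those within 1 kb. The element was in 30% and 4.62% of these, respectively. Among the genes named above, the distal peaks of PLOD2, the peak of ANGPTL4 at -2057 bp and the peak of NQO1 at -500 bp had an Nrf2 peak with iAs, and the control-only peak of HK1 at -2332 bp had none in either condition.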

How the data were processed

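ChIP-seq intervals of HIF1α and Nrf2 were taken as deposited by the authors, in units of base positions on hg19. Per the paper and the submitters' processing notes, reads were aligned (BWA), tags down-sampled within a group, and peaks called with MACS or SICER (MACS2 2.1.0 in the notes). Which caller made which list is not given in the sources used here, the lists hold neither heights nor scores, and the depth is unknown. The authors' merged regions, and an input library without intervals, were not used.

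Intervals were assigned to libraries by the name each carries, which matches the sample labels, and starts were made 1-based. An overlap of 1 bp or more made 2 peaks shared. Distances ran from the peak centre to the nearest TSS of 63712 basic transcripts of 19785 protein-coding genes (GENCODE 44 on GRCh37, whose chromosome lengths match hg19). Motifs and sequences were read from that genome in windows of 200 bp, with the same windows moved by 5 kb as background. Gene lists were glycolysis, lactate and pyruvate handling, the HIF pathway, vascular factors, mitophagy and stress survival, collagen and matrix, demethylases, Nrf2 targets, AP-1 family, TCA cycle, complex I, ribosomal proteins, olfactory receptors and ZNF genes. Named genes were members of the written lists, the 5 widest peaks of each kind, the 5 largest and 5 smallest width ratios, and the 5 genes with a lost control peak and the widest new start-site peak. Some members of the lists are counted but not reported here by name. The members and lists were chosen with earlier results of these data known. Shares carry Wilson 95% intervals, which cover counting error only, and no test was run because there is 1 library per condition. Alternatives were another overlap rule, merging, equal numbers of the widest peaks, other distance limits, canonical transcripts and whole intervals. The overlap, distance and motif steps were tested on simulated intervals. Python 3.11.15, NumPy 2.4.6, pandas 2.3.3, pysam 0.24.0, samtools 1.23.1 and matplotlib 3.10.9 were used.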

Additional observations from a re-analysis of the deposited data

How the results depend on the processing

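Most values moved beyond their counting interval, and 15 of 56 did not. The order of some kinds of peak depended on the setting. Within 1 kb of a TSS the share of shared control peaks was above that of iAs-only peaks, and within 3 kb below it; ACGTG was about as frequent in control-only as in iAs-only windows, and in whole intervals more frequent in the wider iAs-only peaks. No paired analysis was possible because there is 1 library per condition, and for the same reason no library could be left out. With a reciprocal overlap of 50%, shared control peaks were 31.3%, iAs-only peaks 85.3% and the width ratio 1.2. With a gap of up to 1 kb, shared control peaks were 58.0% and iAs-only peaks 68.7%, and an iAs Nrf2 peak lay at 24.7% of shared control, 44.2% of control-only and 8.1% of iAs-only peaks. In the wider 50% of each list, 50.7% of control peaks were shared and 76.4% of iAs peaks were new; with intervals under 500 bp apart merged, 71.1% of iAs peaks were new. Widths divided by each list's median gave a ratio of 1.17. With equal numbers of the widest peaks, shared control peaks were 37.7% and iAs-only peaks 63.4%, the shares within 1 kb of a TSS were 86.6% of shared control, 30.8% of control-only and 83.3% of iAs-only peaks, and 29.8% of the last lay upstream. In that setting 12% of genes had a start-site peak in both conditions, 14.9% with iAs alone and 5.57% in control alone, TGASTCA was in 21.3% of control-only and 1.26% of iAs-only windows, and ACGTG in 20.4% of control-only windows. With canonical transcripts, 76.5% of shared control, 16.2% of control-only and 71.0% of iAs-only peaks lay within 1 kb of a TSS, and 28.4% of the last lay upstream; from the nearest edge, 79.1% of iAs-only peaks did. Within 3 kb the shares were 83.4%, 22.8% and 84.7%, with 16.6% of genes in both conditions and 29.3% with iAs alone; over gene bodies and 10 kb, 25.5% of genes were in both and 3.34% in control alone. In whole intervals TGASTCA was in 30% of control-only and 3.17% of iAs-only peaks, and ACGTG in 39.0% of shared control, 23.2% of control-only and 29.4% of iAs-only peaks.

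The iAs list is longer and its peaks wider than those of control, and with 1 library per condition a difference in enrichment between the immunoprecipitations and an effect of iAs cannot be told apart. Without heights or read depth, a peak absent from a list is not shown to be unbound.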

Other observations

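The gain in HIF1α peaks was uneven across chromosomes. The number of iAs peaks per control peak ran from 1.68 on chromosomes 5 and 20 to 3.12 on chromosome 19, where 229 control and 715 iAs peaks were called. Chromosome 19 also had the highest share of control peaks that overlapped an iAs peak, 65.9%, followed by chromosome 17 with 65.6%. These are values of 1 library per condition, given without a test.

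Genes with a HIF1α start-site peak in both conditions did not always share one position. In 182 of the 3094 such genes (5.88%), no control peak at a start site overlapped an iAs peak there, as at NQO1.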
